A study of Mus musculus with 6 samples.

Results

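The genes described here are 35 genes of the mouse lysosome: 10 cathepsins and 2 further proteases, 7 glycosidases, 5 lipid hydrolases and their activators, 3 transporters of sterol and cystine, 6 membrane proteins and channels, and 2 genes of acidification and its regulation. They were taken by symbol from a list, and all 35 were among the 17441 genes listed in at least 1 library and among the 13120 genes that were tested. Lysosomes are acidic organelles in which hydrolases break down proteins, sugars and lipids taken up by endocytosis, phagocytosis or autophagy. Cardiomyocytes depend on them for the turnover of organelles, and macrophages, which enter the infarcted heart to clear dead cells, are rich in them. The membrane of the organelle is lined by heavily glycosylated proteins, and TFEB is the best known transcription factor of lysosomal genes.

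RNA was sequenced from heart tissue below the ligature, or the matching tissue of sham mice, 3 days after surgery. The groups were wild-type mice given a sham operation (WT sham), wild-type mice given a myocardial infarction (MI) by tying off the left coronary artery (WT MI), and mice with Card9 KO infarcted in the same way (Card9 KO MI), whose libraries are called KO-labelled below. There were 2 libraries for each. All mice were male, 12 weeks old by the labels and on a C57BL/6 background, and the labels do not say whether a library was 1 mouse or a pool, so p-values measure only the spread between these libraries. Card9 KO mice with a sham operation were not analysed here, and genotype and infarction cannot be told apart between the KO-labelled libraries and WT sham. Levels are FPKM, the fragments of a gene scaled by gene length and library size, as the authors deposited them. A change is given as a log2 fold change with its standard error (SE) on the scale of log2(FPKM + 1), which understates changes of low genes, and a gene is called where limma's moderated test gave an adjusted p below 0.05 over all 13120 genes.

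*Card9*, the targeted gene, was at 9.85 and 6.94 FPKM in the KO-labelled libraries, 3.39 and 5.08 in WT MI and 0.990 and 1.03 in WT sham. It was thus not lower where the label says knockout (log2 fold change against WT MI 0.85, SE 0.23, limma adjusted p = 0.11). Every direction against WT MI given below rests on that label. The comparison of WT MI with WT sham likewise rests on the labels of the infarct groups. The deposited values do not show whether the knockout allele still gives a transcript. Replicate libraries correlated across genes at 0.980 to 0.981. The depth, estimated from the spacing of low FPKM values, was 3010000 to 4280000 fragments a library, at which a 2 kb transcript with 3 fragments would stand at 0.350 to 0.498 FPKM, counting error only.

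The promoters of some of these genes carry the palindrome CACGTG, the E-box core bound by TFEB and its relatives, and the windows that hold it are shown because they are the sequence feature most often tied to lysosomal genes as a group. RefSeq promoters of GRCm38.p6, 250 bases before to 50 bases after the start, were matched for 30 of the 35 genes, and there was no entry for *Ctsb*, *Ctsh*, *Npc1*, *Asah1* and *Atp6v0d2*. CACGTG, which reads the same on both strands, was found in 10 of the 30 (33.3%) and in 8.09% of all 27025 genes with an entry. The longer TCACGTGA, which contains CACGTG, was found in 4 of the 30 (13.3%), against 1.12% of all genes. Among the other lysosomal genes with an entry, CACGTG was found in 17 of 61 (27.9%) and TCACGTGA in 10 (16.4%). GAGGAAGT, a motif of the PU.1 type searched on both strands, was found in 4 of the 30 (13.3%), in 3.69% of all genes and in 0 of the 61. In each line the sequence runs 5′ to 3′ on the strand of the gene and lies wholly before the start site, and the capitals mark CACGTG. The windows are *Gla* at chrX:134601179-134601247 on the minus strand, *Lamp1* at chr8:13159085-13159160 on the plus strand, *Mcoln1* at chr8:3500433-3500494 on the plus strand, *Ctsa* at chr2:164833746-164833772 on the plus strand, *Glb1* at chr9:114401015-114401050 on the plus strand, *Ctsf* at chr19:4855071-4855106 on the plus strand and *Gaa* at chr11:119267808-119267843 on the plus strand, all on GRCm38.p6.
Gla: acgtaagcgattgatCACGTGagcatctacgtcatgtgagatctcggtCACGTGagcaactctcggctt
Lamp1: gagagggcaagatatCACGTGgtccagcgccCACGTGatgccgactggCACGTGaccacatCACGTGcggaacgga
Mcoln1: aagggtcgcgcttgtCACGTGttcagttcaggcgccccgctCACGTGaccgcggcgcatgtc
Ctsa: caatgagcaaactgtCACGTGatgcag
Glb1: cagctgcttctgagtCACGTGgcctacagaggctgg
Ctsf: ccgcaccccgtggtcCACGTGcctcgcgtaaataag
Gaa: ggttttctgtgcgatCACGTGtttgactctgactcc
*Lamp1* held 4 copies within 76 bases, *Gla*, *Mcoln1*, *Ctsa* and *Ctsd* held 2 each, and the other 5 genes held 1. The windows of the other 3 genes, *Ctsd*, *Ctsl* and *Lgmn*, are not shown, and all 3 were called higher in WT MI against WT sham. The windows shown thus do not stand for the calls of all 10 genes with the motif. *Ctsa* and *Lgmn* have 2 annotated starts, and it was found at the downstream one only, in *Lgmn* before the start and in *Ctsa* once before and once after it, of which the copy before is shown.

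Infarction of the WT heart was accompanied by higher levels of most of these lysosomal genes. Relative to WT sham, 22 of the 35 were called higher in WT MI, 2 were called lower (*Ctsf* and *Gaa*) and 11 were not called, where 27.7% of all genes tested were called higher and 9.39% lower. Their median log2 fold change was 0.78, against 0.19 over all genes tested. The median of all genes depended on scaling, and was 0.05 with upper-quartile scaling, −0.07 with quantile normalization and 0.06 when the 100 most abundant genes were left out of the scaling, with 21.6%, 17.4% and 21.9% of genes called higher and 14.2%, 18.4% and 14.0% called lower. The 35 FPKM values summed to 2667 and 2517 in the 2 WT sham libraries, 4077 and 4719 in those of WT MI and 6286 and 5060 in the KO-labelled libraries, which was 0.547% and 0.525%, 0.858% and 0.989%, and 1.33% and 1.08% of all FPKM. The 2 WT MI libraries lay above both WT sham libraries in 29 of the 35 genes and below them in 2, where 48.3% and 22.1% of all genes tested had such libraries.

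**Figure D1:**
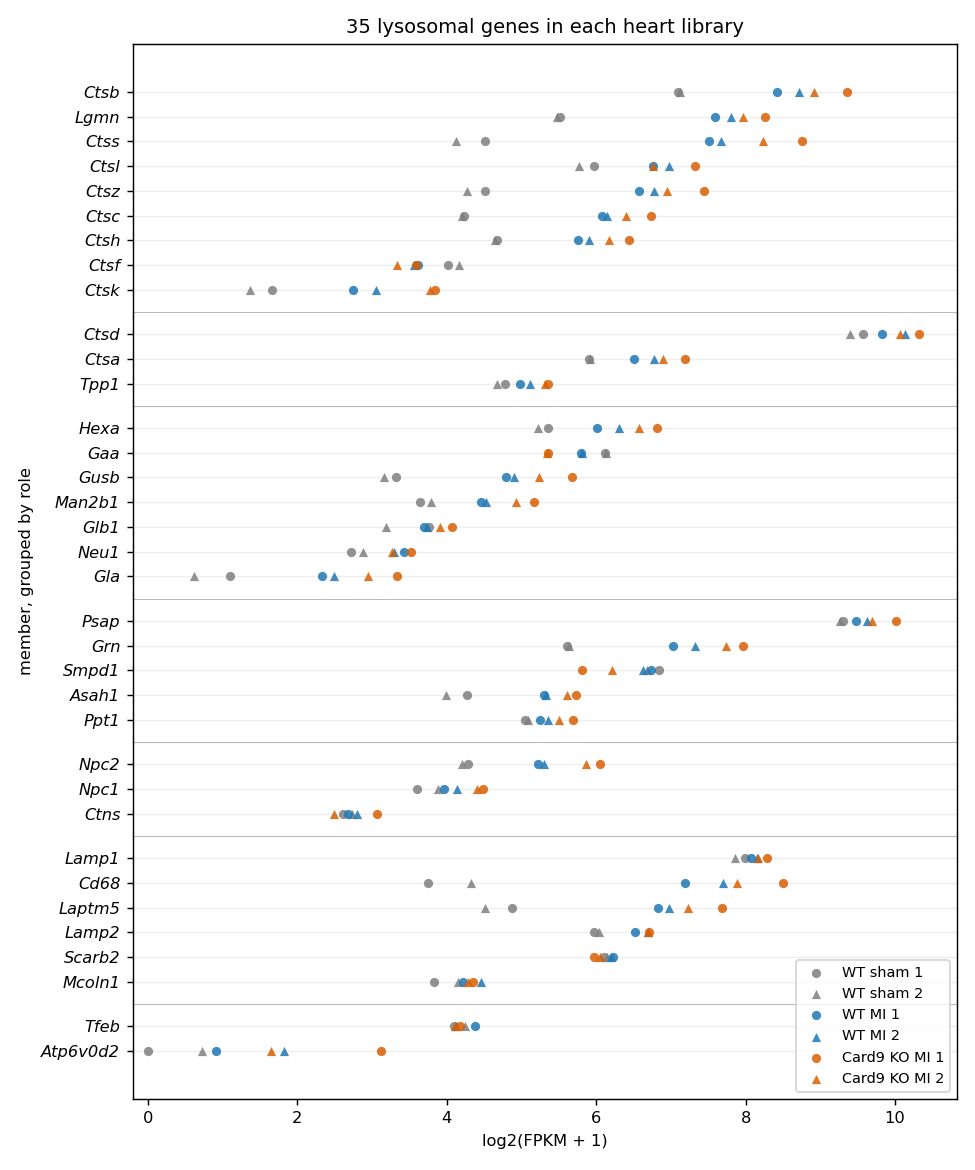
The log2(FPKM + 1) of each of the 35 lysosomal genes (rows, grouped by role in the order of the text) in each of the 6 libraries, with WT sham in grey, WT MI in blue, KO-labelled libraries (Card9 KO MI in the legend) in orange, replicate 1 as a circle and replicate 2 as a triangle. Grey points lie to the left of the blue ones for 29 genes, and to the right of them for *Ctsf* and *Gaa*.

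The cysteine proteases had the largest median log2 fold change of the 7 classes, 1.47. Of the 9, 8 rose in WT MI against WT sham and *Ctsf* fell. *Ctss*, cathepsin S, an elastin-degrading protease that also trims the invariant chain of MHC class II (mm9 chr3:95330708-95360325), was at 21.8 and 16.5 FPKM in WT sham against 180 and 203 in WT MI. It rose 10.02-fold in the group means (log2 fold change 3.27, SE 0.19, limma adjusted p = 3.6e-05). *Ctsz*, a carboxypeptidase, was at 21.8 and 18.4 FPKM in WT sham against 94.5 and 108 in WT MI (log2 fold change 2.28, SE 0.17). *Lgmn*, an asparaginyl endopeptidase that matures cathepsins, was at 44.8 and 43.5 FPKM and then at 191 and 222 (log2 fold change 2.20, SE 0.12). In each of these 3 genes the groups were far apart beside the gap between replicates. *Ctsc*, which activates the serine proteases of neutrophil granules, rose by 1.89 (SE 0.12) on the log2 scale, and *Ctsb*, the second most abundant cathepsin, by 1.47 (SE 0.16), from 135 and 138 FPKM to 343 and 421. *Ctsk*, a collagenase best known from osteoclasts, was at 2.15 and 1.57 FPKM in WT sham against 5.71 and 7.26 in WT MI (log2 fold change 1.39, SE 0.18). *Ctsh*, mainly an aminopeptidase, and *Ctsl*, an endopeptidase of broad action, rose by 1.16 (SE 0.12) and 0.99 (SE 0.18). *Ctsf*, cathepsin F, by contrast was at 15.2 and 16.9 FPKM in WT sham and fell to 11.3 and 10.8 in WT MI (log2 fold change −0.50, SE 0.14, limma adjusted p = 0.025).

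Among the other proteases, *Ctsd*, an aspartic protease and the most abundant of the 35 genes in every group, was at 759 and 673 FPKM in WT sham against 905 and 1126 in WT MI, a log2 fold change of 0.50 (SE 0.14, limma adjusted p = 0.025). *Ctsa*, a serine carboxypeptidase that protects lysosomal glycosidases, rose from 58.9 and 59.7 to 90.3 and 109 FPKM (log2 fold change 0.73, SE 0.13). *Tpp1*, a tripeptidyl peptidase, rose by 0.32 (SE 0.11), close to the threshold (limma adjusted p = 0.045). The makeup of the cathepsin transcripts differed between the groups. Of the summed FPKM of the 10 cathepsins, *Ctsd* held 67.9% and 66.0% in WT sham but 48.7% and 50.3% with WT MI, and 41.8% and 45.1% in the KO-labelled libraries. *Ctss* held 1.95% and 1.62%, then 9.72% and 9.09%, then 14.1% and 12.6%. The share of *Ctsb* was 12.1% and 13.6%, 18.5% and 18.8%, and 21.4% and 20.2%. The libraries of the 3 groups did not overlap in any of these shares, and no test was run on them. The shares of *Ctsa*, *Ctsc* and *Ctsh* did overlap between WT MI and the KO-labelled libraries.

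**Figure D2:**
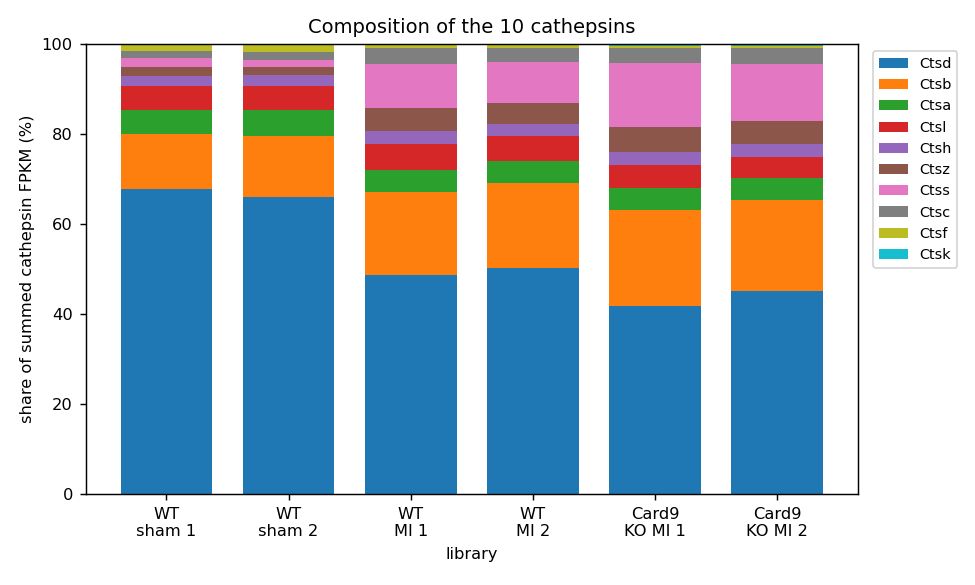
The share of each of the 10 cathepsins in their summed FPKM (y axis, percent) in each library (x axis), stacked from the most abundant in WT sham at the bottom. The *Ctsd* segment shrinks from 67.9% and 66.0% in WT sham to 41.8% and 45.1% in the KO-labelled libraries, and the *Ctss* segment grows from 1.95% and 1.62% to 14.1% and 12.6%.

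Of the 7 glycosidases, 5 rose in WT MI, *Gaa* fell and *Glb1* was not called. *Gusb*, β-glucuronidase, was at 8.99 and 7.90 FPKM in WT sham against 26.8 and 28.8 in WT MI (log2 fold change 1.61, SE 0.16). *Gla*, α-galactosidase A, the enzyme lost in Fabry disease, was low in WT sham, at 1.15 and 0.540 FPKM, and was at 4.04 and 4.60 in WT MI (log2 fold change 1.55, SE 0.23, limma adjusted p = 0.0017). *Hexa*, the α subunit of β-hexosaminidase, *Man2b1*, the lysosomal α-mannosidase, and *Neu1*, a sialidase, rose by 0.86 (SE 0.13), 0.78 (SE 0.13) and 0.56 (SE 0.15). *Gaa*, acid α-glucosidase, which degrades glycogen in the lysosome and is lost in Pompe disease, was at 68.6 and 68.9 FPKM in WT sham against 54.4 and 54.9 in WT MI (log2 fold change −0.33, SE 0.09, limma adjusted p = 0.022). *Glb1*, β-galactosidase, was at 12.5 and 8.09 FPKM in WT sham, which spanned the 12.0 and 12.4 of WT MI.

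The lipid hydrolases and their activators split. *Grn*, progranulin, a secreted and lysosomal protein processed into granulins, was at 47.7 and 48.5 FPKM in WT sham against 130 and 158 in WT MI (log2 fold change 1.55, SE 0.12, limma adjusted p = 1.3e-04), and *Asah1*, acid ceramidase, rose by 1.18 (SE 0.12). *Psap*, the precursor of the saposins that present sphingolipids to their hydrolases and the second most abundant of the 35, was at 631 and 613 FPKM and then 713 and 789, and was not called (log2 fold change 0.27, SE 0.12, limma adjusted p = 0.12). *Ppt1*, palmitoyl-protein thioesterase, was not called either (log2 fold change 0.24, SE 0.11). *Smpd1*, acid sphingomyelinase, which makes ceramide from sphingomyelin, was at 113 and 101 FPKM in WT sham against 105 and 97.7 in WT MI, so the libraries of these 2 groups overlapped.

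In the sterol pathway *Npc2*, the soluble protein that hands cholesterol to the membrane protein NPC1, rose from 18.5 and 17.4 FPKM in WT sham to 36.4 and 38.5 in WT MI (log2 fold change 1.02, SE 0.11, limma adjusted p = 3.9e-04). *Npc1* itself was at 11.2 and 13.7 and then 14.6 and 16.7 FPKM and was not called (log2 fold change 0.31, SE 0.14). *Ctns*, the cystine exporter, overlapped between the groups, at 5.12 and 5.67 and then 5.39 and 5.96 FPKM.

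The membrane proteins and channels ranged widely. *Cd68*, a glycoprotein of late endosomes used as a macrophage marker (mm9 chr11:69477715-69479655), showed the largest log2 fold change of the 35, 3.41 (SE 0.27, limma adjusted p = 1.1e-04), from 12.5 and 19.0 FPKM in WT sham to 145 and 207 in WT MI. *Laptm5*, a transmembrane protein of blood cells, rose from 28.2 and 21.9 to 113 and 125 FPKM (log2 fold change 2.21, SE 0.17). The general structural proteins of the membrane had smaller log2 fold changes. *Lamp2*, needed for the fusion of autophagosomes with lysosomes, rose by 0.60 (SE 0.10), while *Lamp1* was at 252 and 231 FPKM and then 267 and 284 and was not called (log2 fold change 0.19, SE 0.09, limma adjusted p = 0.16). *Mcoln1*, a calcium channel of the lysosome, was at 13.2 and 16.8 FPKM in WT sham against 17.6 and 20.9 in WT MI (log2 fold change 0.35, SE 0.15, limma adjusted p = 0.11). *Scarb2*, the receptor that sorts β-glucocerebrosidase, was at 68.0 and 69.8 FPKM and then 74.0 and 72.3, a log2 fold change of 0.08 (SE 0.09) that turned negative under the 3 other scalings.

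*Tfeb* was at 16.1 and 17.9 FPKM in the WT sham libraries, 19.9 and 16.4 in those of WT MI and 17.1 and 16.2 in the KO-labelled libraries, and the 3 groups overlapped. Its transcript level says nothing of the protein's place in the cell, by which TFEB is largely regulated. *Atp6v0d2*, a subunit of the proton pump found in osteoclasts and macrophages, was the least abundant of the 35 and was listed in 5 of the 6 libraries, with 0 and 0.650 FPKM in the WT sham libraries, 0.880 and 2.52 in those of WT MI and 7.72 and 2.14 in the KO-labelled libraries. In WT sham 3 fragments on a 2 kb transcript are worth 0.468 and 0.498 FPKM, so the WT sham values lie below or near that. The lower WT MI value is also low but lies above the 0.376 FPKM of its library. The length of this gene's own transcript was not used. No difference between WT sham and WT MI was called (limma adjusted p = 0.17).

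Calls of 19 of the 24 genes held in every alternative processing in which the gene was tested, each left-out library included. The call of *Ctsf* was lost without WT sham 2, WT MI 1 or WT MI 2 (adjusted p = 0.115, 0.0879 and 0.109), that of *Gaa* without WT sham 1, WT sham 2, WT MI 1 or WT MI 2 (adjusted p = 0.0741, 0.0854, 0.105 and 0.0904), that of *Ctsd* without WT sham 1, WT sham 2 or WT MI 2 (adjusted p = 0.0503, 0.140 and 0.172), that of *Neu1* without WT sham 1, WT MI 1 or WT MI 2 (adjusted p = 0.0940, 0.123 and 0.0636), and that of *Tpp1* without any 1 of the 6 libraries (adjusted p from 0.0593 to 0.211). The calls of *Ctsd*, *Neu1* and *Tpp1* were also lost with upper-quartile scaling and with scaling without the 100 most abundant genes, those of *Neu1* and *Tpp1* with quantile normalization, those of *Ctsd*, *Tpp1* and *Gaa* without the eBayes trend, that of *Ctsd* without a filter, and that of *Tpp1* with the replicate block or a fit of only the groups compared.

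The differences between the KO-labelled libraries and WT MI were smaller and mostly in the same direction. Of the 35 genes 2 were called higher (*Npc2* and *Grn*) and 0 lower, where 0.816% of all genes tested were called higher and 0.587% lower, and 23 of the 35 had an unadjusted p under 0.05, as did 2629 of the 13120 genes tested. Their median log2 fold change was 0.40, against 0.04 over all genes tested, and 29 of the 35 were positive. Both KO-labelled libraries lay above both WT MI libraries in 23 genes, below them in 3 and overlapped them in 9, where 30.8% and 21.9% of all genes tested had KO-labelled libraries wholly above and wholly below. The comparison shares its WT MI libraries with the comparison against WT sham, so a low WT MI value raises one difference and lowers the other.

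*Npc2* (mm9 chr12:86095510-86114062) was at 36.4 and 38.5 FPKM in WT MI and at 65.5 and 57.3 in the KO-labelled libraries (log2 fold change 0.69, SE 0.11, limma adjusted p = 0.036). *Grn* (mm9 chr11:102291629-102298123) was at 130 and 158 FPKM and at 249 and 213 (log2 fold change 0.68, SE 0.12, limma adjusted p = 0.049). In both genes the 2 groups lay apart, but both calls sat close to the threshold. The call of *Npc2* was lost without WT MI 1, WT MI 2, KO-labelled 1 or KO-labelled 2 (adjusted p = 0.248, 0.134, 0.141 and 0.0536), and that of *Grn* without any 1 of the 6 libraries (adjusted p from 0.0614 to 0.278). With FPKM + 5, with only genes of a mean FPKM of at least 5, or with only genes listed in all 6 libraries, 4 of the 35 were called higher, and without a filter, with FPKM + 0.1, or in a fit of only these 2 groups, 0 were.

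*Ctsk* and *Ctss* showed the next smallest adjusted p among the genes with higher values. *Ctsk* was at 5.71 and 7.26 FPKM in WT MI and 13.4 and 12.7 in the KO-labelled libraries (log2 fold change 0.91, SE 0.18, limma adjusted p = 0.058), and *Ctss* at 180 and 203 and then 431 and 301 (log2 fold change 0.91, SE 0.19, limma adjusted p = 0.064). Neither passed the test, though in both genes the groups lay apart. Of the 9 cysteine proteases 7 had KO-labelled libraries above both WT MI libraries, as did 5 of the 7 glycosidases. So did 4 of the 5 lipid hydrolases and activators, and 3 of the 6 membrane proteins and channels. The same held for 2 of 3 aspartic and serine proteases and 2 of 3 transporters of sterol and cystine. In acidification and regulation it held for 0 of 2, and over all genes tested for 30.8%. *Cd68*, which had the largest change after infarction, was at 145 and 207 FPKM in WT MI and 362 and 235 in the KO-labelled libraries, and was not called (log2 fold change 0.75, SE 0.27, limma adjusted p = 0.18).

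Of the 6 genes with a negative log2 fold change, *Smpd1*, *Gaa* and *Scarb2* had KO-labelled libraries wholly below WT MI, and *Ctsf*, *Tfeb* and *Mcoln1* overlapped. *Smpd1* was at 105 and 97.7 FPKM in WT MI and at 55.3 and 73.0 in the KO-labelled libraries (log2 fold change −0.66, SE 0.14, limma adjusted p = 0.066). *Gaa* was at 54.4 and 54.9 and at 39.8 and 39.5 FPKM (log2 fold change −0.45, SE 0.09, limma adjusted p = 0.058). *Scarb2* was at 74.0 and 72.3 and at 61.5 and 65.1 FPKM (log2 fold change −0.21, SE 0.09, limma adjusted p = 0.25). None of the 3 passed the test as reported. *Gaa* and *Smpd1* were called lower when only genes of a mean FPKM of at least 5, or only genes listed in all 6 libraries, were tested.

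**Figure D3:**
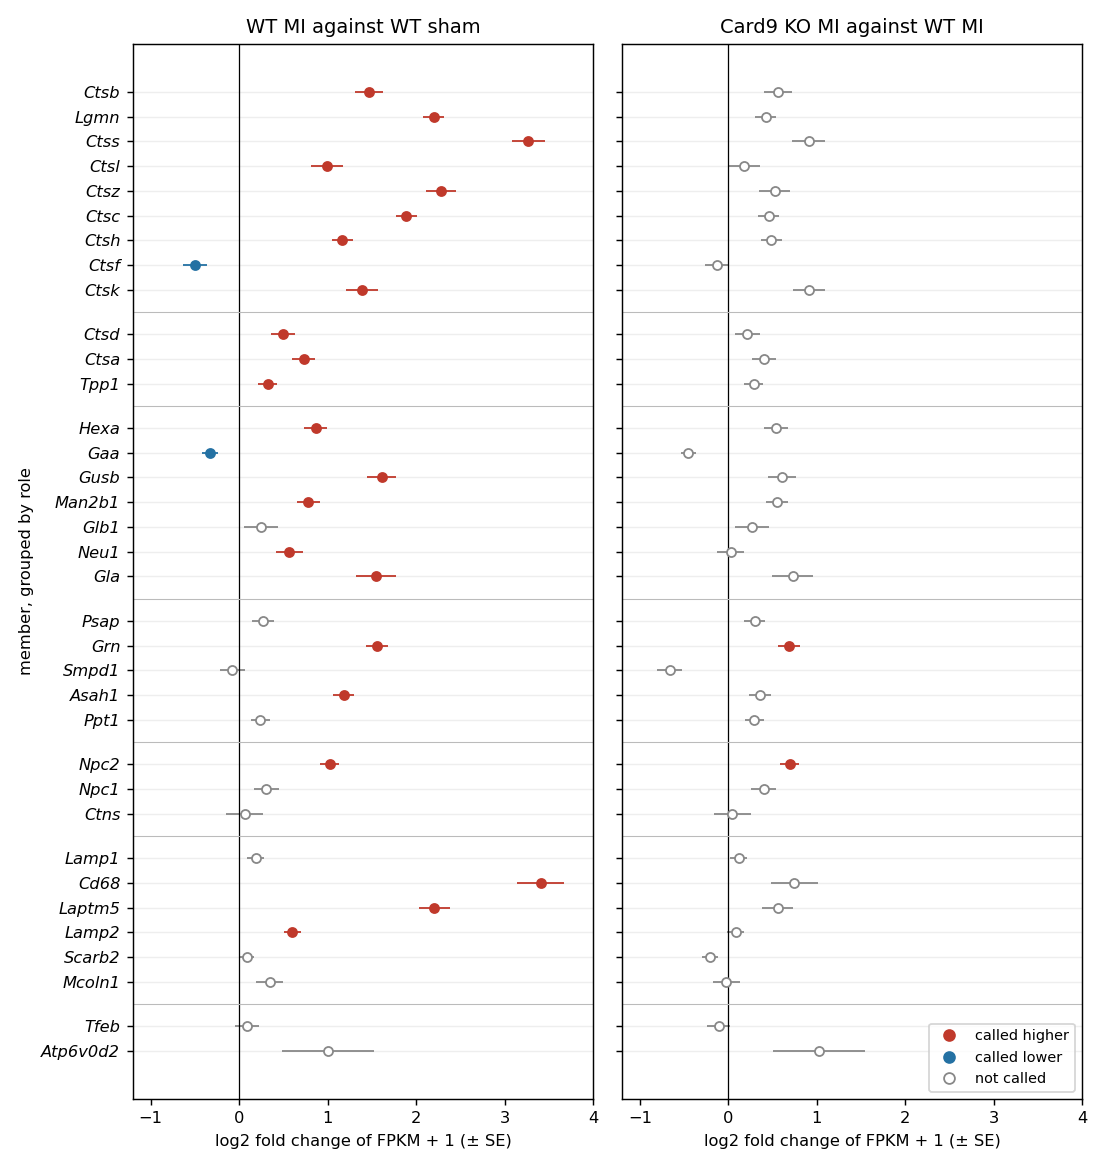
Log2 fold change of FPKM + 1 (x axis) with its standard error for each of the 35 genes (rows, grouped by role) in WT MI against WT sham (left) and in the KO-labelled libraries against WT MI (right), from limma on 2 libraries a group. Red points were called higher, blue points called lower and open points not called; 22 red and 2 blue points stand on the left, and 2 red points, *Grn* and *Npc2*, on the right.

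Against WT sham, the KO-labelled libraries had 27 of the 35 genes called higher and 3 called lower, where 34.8% of all genes tested were called higher and 14.3% lower. The log2 fold changes had a median of 1.17, against 0.24 over all genes. The KO-labelled libraries lay wholly above WT sham in 29 genes and wholly below in 4, where 51.6% and 24.5% of all genes tested did. The 5 largest were those of *Ctss* (4.18, SE 0.19), *Cd68* (4.16, SE 0.27), *Ctsz* (2.80, SE 0.17), *Laptm5* (2.76, SE 0.17) and *Lgmn* (2.62, SE 0.12), and the 3 lower genes were *Gaa* (−0.78, SE 0.09), *Smpd1* (−0.74, SE 0.14) and *Ctsf* (−0.63, SE 0.14). *Psap*, *Ppt1*, *Npc1*, *Lamp1* and *Atp6v0d2* were called higher and *Smpd1* lower in this comparison though not in either of the other 2. *Psap* was at 631 and 613 FPKM in WT sham and 1029 and 826 in these libraries (log2 fold change 0.57, SE 0.12, limma adjusted p = 0.0061). The call of *Atp6v0d2* was lost without WT sham 1 or KO-labelled 1 (adjusted p = 0.0715 and 0.0762), that of *Neu1* without WT sham 1 or KO-labelled 1 (adjusted p = 0.0650 and 0.0960), and that of *Lamp1* without WT sham 1, WT sham 2, WT MI 1, WT MI 2 or KO-labelled 1 (adjusted p = 0.0508, 0.163, 0.0554, 0.0550 and 0.114). Quantile normalization also ended the calls of *Neu1* and *Lamp1*, and that of *Lamp1* was lost as well with upper-quartile scaling, with scaling without the 100 most abundant genes, in a fit of only the groups compared and without the eBayes trend. *Ctns*, *Glb1*, *Mcoln1*, *Scarb2* and *Tfeb* were called in none of the 3 comparisons.

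The order of the levels changed with these differences. *Ctsd* and *Psap* ranked 1 and 2 of the 35 in each group mean. *Smpd1* ranked 5 in WT sham but 11 in WT MI and 17 in the KO-labelled libraries, *Scarb2* ranked 6, 15 and 18, and *Gaa* 7, 19 and 23. In the other direction *Ctss* ranked 19, 6 and 4, and *Cd68* 25, 7 and 5. A rank can fall without a fall of the level, as in *Scarb2*, whose FPKM in WT MI was not below that in WT sham.

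Set beside the promoter windows above, the 10 genes with CACGTG included 5 called higher in WT MI against WT sham (*Lgmn*, *Gla*, *Ctsl*, *Ctsa* and *Ctsd*), both genes called lower (*Ctsf* and *Gaa*) and 3 not called (*Lamp1*, *Mcoln1* and *Glb1*). Their median log2 fold change was 0.42, with a range from −0.50 to 2.20. Of the 20 genes with a promoter entry and no CACGTG, 14 were called higher and 0 lower, with a median of 0.82 and a range from −0.08 to 3.41. Over all genes tested, 27.7% were called higher and 9.39% lower. Some alternatives ended the calls of *Ctsd*, *Ctsf* and *Gaa* among the genes with the motif, and of *Neu1* and *Tpp1* among those without. *Cd68*, *Ctss*, *Ctsz* and *Laptm5*, which had the 4 largest changes, had no copy in these 300 bases. *Lgmn*, which came next and close to *Laptm5* (2.20, SE 0.12, against 2.21, SE 0.17), held a copy. The match is a description of letters, and no difference between the 2 sets was tested.

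The other genes of the lysosome, a list of 83 genes of which 80 were tested, give the setting. In WT MI against WT sham 44 of the 80 were called higher and 2 lower, with a median log2 fold change of 0.44. Of all genes tested 27.7% were called higher and 9.39% lower, with a median of 0.19. The largest were those of *Ifi30* (3.42, SE 0.21), a thiol reductase of antigen processing, *Slc11a1* (2.75, SE 0.26), a metal transporter of phagosomes, *Litaf* (2.28, SE 0.17) and *Acp5* (2.09, SE 0.22), the tartrate-resistant acid phosphatase. The lower genes were *Sort1* (−0.53, SE 0.16), a sorting receptor, and *Laptm4b* (−0.32, SE 0.10). Of the 17 subunits of the proton pump 11 rose and 0 fell, with a median of 0.44, and of the 33 other hydrolases and activators 19 rose and 0 fell. Of 10 genes of sorting and maturation 3 rose and 1 fell, and of 12 other membrane proteins 7 rose and 1 fell. Of 4 protease inhibitors on the list, not all of them lysosomal or inhibitors of cathepsins, 3 rose. Of 4 transcription factors related to TFEB or opposing it 1 rose. The shares called higher among the sorting genes (30.0%) and these transcription factors (25.0%) lay near the 27.7% of all genes tested.

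Against WT MI, the KO-labelled libraries had 1 of the 80 other lysosomal genes called higher and 0 lower, beside the 0.816% and 0.587% of all genes tested, and 20 had an unadjusted p under 0.05, beside the 2629 of 13120. None of the 17 proton pump subunits was called, and their median was 0.10. Against WT sham 51 of the 80 were called higher and 4 lower, where 34.8% of all genes tested were called higher and 14.3% lower. The 4 lower genes were *Mitf* (−0.69, SE 0.16), *Zkscan3* (−0.69, SE 0.13), *Creg1* (−0.52, SE 0.12) and *Laptm4b* (−0.48, SE 0.10). The largest changes were again those of *Ifi30* (3.91, SE 0.21), *Slc11a1* (2.96, SE 0.26), *Acp5* (2.74, SE 0.22) and *Litaf* (2.69, SE 0.17).

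In bulk tissue, more cells of a type and more RNA per cell cannot be told apart, and markers of cell types moved with the lysosomal genes. All 12 macrophage markers were called higher in WT MI against WT sham, beside 27.7% of all genes tested. The summed FPKM of the 12 was 347 to 417 among WT sham libraries, 1333 to 1674 with WT MI and 1938 to 2632 in the KO-labelled libraries. Against WT MI 0 of the 12 were called in the latter, beside 0.816% of all genes tested called higher. Beside 56.3% of all genes tested, 11 of the 12 were positive, with a median log2 fold change of 0.66. The most abundant of them were *Lyz2*, lysozyme, at 152 and 124, 617 and 830, and 1168 and 821 FPKM, and *C1qb* at 75.4 and 68.5, 218 and 261, and 491 and 364. Within groups, KO-labelled 1 exceeded KO-labelled 2 in 33 of the 35 lysosomal genes (median log2 ratio 0.25). WT MI 2 exceeded WT MI 1 in 30 (median log2 ratio 0.15). The sums of the macrophage markers, of the fibroblast markers and of the other lysosomal genes were higher in the same libraries. The cardiomyocyte, neutrophil, endothelial and T and B cell sums did not follow this order in both groups. How many of all genes tested followed it was not counted. The part of any cell type in the lysosomal differences was not tested.

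Of the 9 cardiomyocyte markers 7 were called lower in WT MI and 9 in the KO-labelled libraries against WT sham. Of all genes tested 9.39% and 14.3% were called lower there. The 9 markers summed to 47354 to 48800 FPKM in WT sham, 29637 to 30192 in WT MI and 24606 to 28499 in the KO-labelled libraries. The most abundant, *Myl2* and *Actc1*, were at 11442 and 11401 and at 10230 and 9931 FPKM in WT sham. In WT MI they were at 4836 and 4806 and at 7910 and 8910 FPKM. The KO-labelled libraries had them at 4222 and 4939 and at 6905 and 8531, so heart muscle was present in every group as the labels say. The 8 fibroblast markers summed to 489 to 512 FPKM in WT sham, 1479 to 2003 in WT MI and 3059 to 3188 in the KO-labelled libraries. Of the 8, 6 were called higher in WT MI against WT sham, beside 27.7% of all genes tested. In the KO-labelled libraries against WT MI 3 were called higher (*Col1a1*, *Col1a2* and *Postn*), beside 0.816% of all genes tested. *Pdgfra* went the other way, at 15.2 and 15.9 FPKM in WT MI and 10.6 and 10.4 in the KO-labelled libraries, and was not called. *Dcn* also had a negative log2 fold change there (−0.16, SE 0.13), with overlapping libraries, and was not called. The most abundant over all 6 libraries were *Col1a1*, at 359 and 516 FPKM in WT MI and 932 and 870 in the KO-labelled libraries, and *Col3a1*, at 375 and 489 and at 716 and 662. Neutrophil markers, of which *Ly6g* and *Camp* were not listed in any library and *Ngp* in 1, summed to 5.40 to 7.64, 93.1 to 212 and 46.7 to 59.8 FPKM, with *S100a9* and *S100a8* the most abundant at 94.0 and 39.2 and at 68.9 and 25.3 in WT MI. All 6 of those tested were called higher in WT MI against WT sham, beside 27.7% of all genes tested. *Mmp8* and *Retnlg* stayed below 1 FPKM in both WT sham libraries, and *S100a8* and *S100a9* in WT sham 2. These genes passed the filter only with infarct libraries, so the filter favoured calls in that direction. All 6 neutrophil markers tested had lower values in both KO-labelled libraries than in either WT MI library, with 0 called. Of all genes tested 21.9% had such libraries. This is the opposite order from that of most lysosomal genes. Endothelial markers, led by *Cdh5* and *Pecam1*, summed to 299 to 304, 311 and 362 to 363 FPKM, and T and B cell markers, led by *Cd79a* and *Cd2*, to 2.42 to 4.81 over all libraries.

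**Figure D4:**
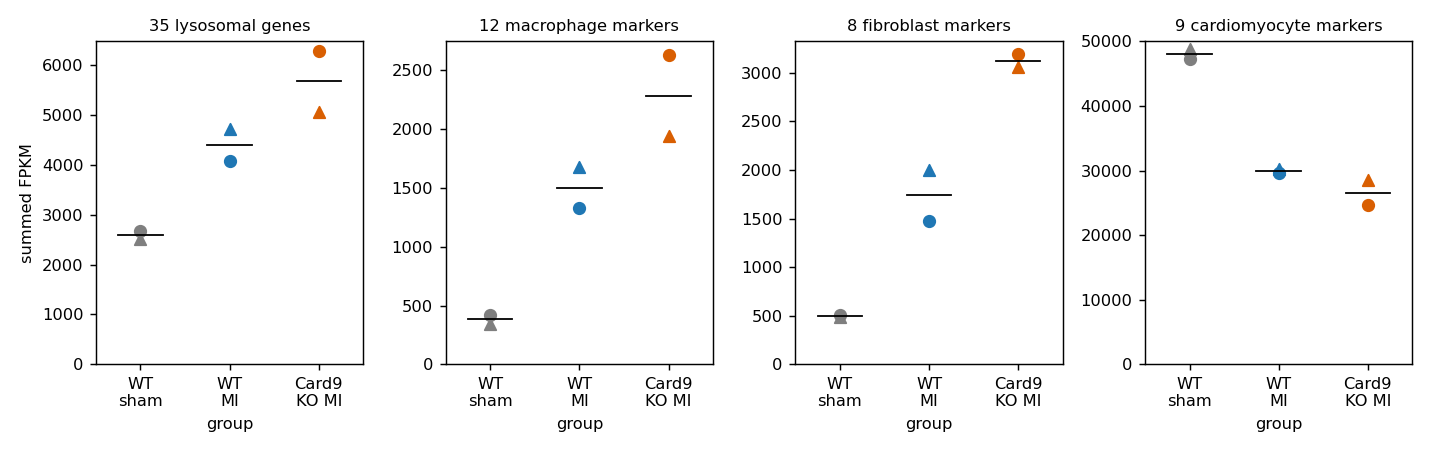
Summed FPKM (y axes, each from 0 and on its own scale) of the 35 lysosomal genes and of the macrophage, fibroblast and cardiomyocyte markers in each library, with replicate 1 as a circle, replicate 2 as a triangle and the group mean as a line. The lysosomal and macrophage sums are lowest in WT sham and highest in KO-labelled 1, and the cardiomyocyte sum is highest in WT sham and lowest in KO-labelled 1.

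Some of the 35 genes share exonic bases with a neighbour on mm9, and without knowledge of strand their reads cannot be told apart there. *Ctsb* shared 16.2% of its exonic bases with *Fdft1*, *Ctsa* 10.5% with *Pltp* and 6.87% with *Neurl2*, *Lamp1* 7.85% with *Grtp1*, and *Ppt1* 3.51% with *Cap1*, all on the other strand, and *Ctsd* shared 6.47% with a gene model on its own strand. *Ctsz* and *Npc1* shared 0.694% and at most 1.79%. No exonic overlap was found for the other genes that have a position in that annotation, *Cd68*, *Ctss*, *Grn*, *Npc2*, *Gaa* and *Smpd1* included.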

How the data were processed

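RNA was extracted with TRIzol from heart tissue of 3 groups of 2 libraries each, enriched for mRNA and sequenced on an Illumina HiSeq. Per the labels and methods, the authors mapped filtered reads to mm9 with BWA and Bowtie2 and deposited FPKM values per NCBI gene number, to 2 decimals, leaving out genes at 0. A few abundant genes can shift the FPKM of all others, since each value is relative to its library total. Annotation and strand setting are not given in the sources used here. Genes not listed were set to 0.

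Genes that reached 1 FPKM in 2 or more libraries (13120 of 17441) were tested with limma 3.58.1 in R 4.3.3, as lmFit and eBayes with trend on log2(FPKM + 1), 3 groups in 1 fit, with Benjamini-Hochberg adjustment and calls below 0.05. The fit was tested on simulated data. Fragments per library were estimated from 3732 genes with 1 annotated transcript. In 3 simulated libraries the largest error was 1.62%, but only 69.5% to 73.8% of low values came out whole within 0.12 fragments, so no count test was run. The estimates cover counting error only.

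The 35 genes, the other lists and the tests were chosen with earlier results of these data known. Genes named are all 35, the 5 largest called changes in each direction, the 4 largest of the other lysosomal genes, the 2 most abundant markers of each list, *Card9*, and overlapping neighbours. A gene of the other lysosomal list is not reported here by name. The promoter motifs and windows were chosen after the values were seen. Alternatives were other added values, filters, scalings and fits, the replicate number as a block, and each library left out. Replicate numbers did not pair the libraries (correlations of deviations −0.008 to 0.02).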

Additional observations from a re-analysis of the deposited data

How the results depend on the processing

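The 2 libraries a group and an estimated 3010000 to 4280000 fragments a library limit small differences and low genes such as *Atp6v0d2*. No called gene of the 35 turned direction under the alternatives. The log2 fold change of *Scarb2* in WT MI against WT sham, which was not called, turned to −0.0721 with upper-quartile scaling, −0.0943 with quantile normalization and −0.0641 when scaled without the 100 most abundant genes. With a library left out, the 1 library remaining in its group was assumed to vary like the others. Where an alternative moved a value, the cause was not tested.

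For WT MI against WT sham, the 22 genes called higher stayed between 19 and 22. The 2 called lower were 1 without the eBayes trend and 0 to 2 with a library left out. The median log2 fold change of 0.78 was 0.63 with FPKM + 5 and with upper-quartile scaling, 0.64 without the 100 most abundant genes, and 0.63 to 0.86 with a library left out. Of the other lysosomal genes, the 44 higher were 28 with quantile normalization. The 2 lower were 1 without a filter, without trend or with the replicate block, 5 with upper-quartile scaling or without the 100 most abundant genes, 7 with quantile normalization, and 0 to 2 with a library left out.

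For the KO-labelled libraries against WT MI, the 2 genes called higher were 0 with FPKM + 0.1, without a filter, with only the groups compared, without trend or with the replicate block, 1 with upper-quartile scaling or without the 100 most abundant genes, and 4 with FPKM + 5, with a mean FPKM of at least 5 or with only genes listed in all 6 libraries, and 0 to 1 with a library left out. The 0 called lower were 1 with FPKM + 5, 2 with a mean FPKM of at least 5 or with genes listed in all 6 libraries, and 0 to 1 with a library left out. The median of 0.40 was 0.27 to 0.48 with a library left out. The 1 other lysosomal gene called higher became 2 genes with FPKM + 5, a mean FPKM of at least 5, quantile normalization or genes listed in all 6 libraries, 0 without a filter or trend, and 0 to 2 with a library left out.

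For the KO-labelled libraries against WT sham, the median of 1.17 was 1.00 with upper-quartile scaling and without the 100 most abundant genes, and 0.99 to 1.44 with a library left out. The 4 other lysosomal genes called lower were 2 to 6 with a library left out. Replicate numbers only name libraries here, and with the replicate block all other counts of the 35 stayed within 1.5 times the reported ones.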
